A study of Arabidopsis thaliana with 12 samples.

Results

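Polycomb repressive complex 2 (PRC2) and its partner LHP1 were followed as 7 loci of the 33602 counted in each library: CLF (AT2G23380), SWN (AT4G02020), FIE (AT3G20740), EMF2 (AT5G51230), VRN2 (AT4G16845), MSI1 (AT5G58230) and LHP1 (AT5G17690, TFL2 in the annotation). The rule names the loci and uses no measured value, but the 7 were chosen with earlier results of these data known. Each was matched to the transcript identifier in the count files after its suffix was removed. All 7 were found, and all 7 were among the 19924 loci with enough counts to be tested. The study measured mRNA of whole Arabidopsis thaliana seedlings of the Col-0 ecotype in 12 libraries, 3 for each of 4 genotypes. The mutant abo4-1 is altered in POL2A, which encodes the catalytic subunit of DNA polymerase epsilon, the leading-strand replicase. Both DPB2oe1.11.5 and line DPB2oe12.1.5 overexpress DPB2, a regulatory subunit of that enzyme, and Col-0 was wild type. All seedlings were at Boyes stage 1.02, untreated, and raised with 16 h of light at 65% humidity and 20 °C on 0.5x MS. The promoter that drives DPB2, the number of seedlings in a library and the hour of harvest are not stated by the labels. Nor do they say whether replicates were grown separately, so that p-values measure only the spread between these libraries, which may be technical.

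PRC2 places methyl groups on lysine 27 of histone H3 and so keeps developmental genes silent in tissues where they are not needed. In Arabidopsis a catalytic subunit, CLF or SWN in vegetative tissue, joins a subunit of the Su(z)12 type, EMF2 or VRN2, together with FIE and MSI1, and LHP1 binds the methylated histone. The mark is diluted when DNA is copied and has to be restored on new chromatin, and the catalytic subunits of replicative polymerases are known to bind Polycomb proteins in this plant.

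Counted reads ran from 10902547 to 29456111 per library, and values are given as counts per 1e+06 reads scaled between libraries (CPM). DPB2 was at 113 ± 6.54 CPM in line DPB2oe1.11.5 and 115 ± 4.17 CPM in line DPB2oe12.1.5, against 2.90 ± 1.2 CPM in Col-0 (SD, n = 3 each), as the labels require. POL2A averaged 25.3 ± 1.15 CPM in abo4-1 and 16.4 ± 0.836 CPM in Col-0 (SD, n = 3 each), so the series' term knock-out for abo4-1 does not mean absence of its transcript. Against Col-0 its log2 fold change was 0.62 in abo4-1 and 0.35 in line DPB2oe12.1.5, neither called by edgeR. In DPB2oe1.11.5 POL2A was called higher, at 0.84, a call kept in 9 of 14 alternatives. Of the 12 libraries, 4 stood apart in the clock gene LHY. They were abo4-1 replicate 2 (173 CPM), DPB2oe1.11.5 replicate 2 (217 CPM), and replicate 1 (202 CPM) and replicate 2 (197 CPM) of DPB2oe12.1.5. No Col-0 library was among the 4. The other 8 lay between 3.97 and 48.1 CPM and were not alike. LHY and PRR5, another clock gene, were at 48.1 and 4.13 CPM in Col-0 replicate 1. They were at 40 and 8.5 CPM in DPB2oe12.1.5 replicate 3, and 26.6 and 8.62 CPM in abo4-1 replicate 1. In the rest LHY was 3.97 to 8.97 CPM and PRR5 33.3 to 51.8 CPM. Leaving out the 4 thus does not leave libraries alike in these clock genes. In whole seedlings fewer cells of a type and less RNA per cell cannot be told apart. The counting's use of strand is not given, and genes on the opposite strand overlap FIE by up to 210 bases, MSI1 by 132, CLF by up to 58 and LHP1 by 12, so reads from those stretches may belong to either gene.

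None of the 7 transcripts passed the test in any line. With edgeR's quasi-likelihood test and an adjusted p under 0.05 over all 19924 loci, 0 of 7 members were called in abo4-1 against Col-0, where 0.783% of tested loci were called. In DPB2oe1.11.5 against Col-0 it was 0 of 7 beside 0.708%, and in line DPB2oe12.1.5 against Col-0 0 of 7 beside 0.427%. At an unadjusted p under 0.05 the counts were 0, 1 and 1 of 7, beside 8.13%, 14.9% and 16.7% of all tested loci. DESeq2 also called 0 of 7 in each comparison, among 308, 645 and 708 loci it called in all. With so few loci called in all, 7 uncalled members are near the background. The intervals carry more: each of the 21 log2 fold changes had a 95% interval between -0.57 and 0.89, a fold of 0.674 to 1.85, so that every interval excluded a change as large as a doubling or a halving. The 3 comparisons share the same Col-0 libraries. Each interval is taken singly and, like the p-values, measures only the spread between these libraries.

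CLF, the main methyltransferase of vegetative tissue (chromosome 2, 9955092 to 9960386, plus strand, TAIR10.1), was at 20, 16.8 and 15.7 CPM in abo4-1, 17.8, 14.5 and 19.2 CPM in line DPB2oe1.11.5, 17.5, 18.2 and 13.5 CPM in line DPB2oe12.1.5, and 18.4, 16.7 and 17.3 CPM in Col-0. The highest library was abo4-1 replicate 1 and the lowest DPB2oe12.1.5 replicate 3, and every line overlapped Col-0. Its log2 fold changes were 0.00 ± 0.16, -0.03 ± 0.16 and -0.09 ± 0.16 (SE) in abo4-1, DPB2oe1.11.5 and line DPB2oe12.1.5. SWN, the methyltransferase that acts beside CLF (chromosome 4, 886580 to 891987, plus strand), had 29.4, 29.0 and 24.9 CPM in abo4-1, 24.0, 32.9 and 31.4 CPM in line DPB2oe1.11.5, 26.9, 29.7 and 25.7 CPM in line DPB2oe12.1.5, and 31.6, 24.2 and 30.5 CPM in Col-0. DPB2oe1.11.5 held both its lowest and its highest library, and no line separated from Col-0. The log2 fold changes of SWN were -0.05 ± 0.15, 0.03 ± 0.15 and -0.07 ± 0.15 in the same order. Per kilobase of transcript SWN exceeded CLF in all 12 libraries, by a ratio of 1.40 to 2.34 that took both its extremes within DPB2oe1.11.5.

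FIE, a WD40 protein present in every form of the complex (chromosome 3, 7248809 to 7252452, minus strand), was at 10.1, 8.71 and 7.85 CPM in abo4-1, 10, 11.9 and 9.71 CPM in line DPB2oe1.11.5, 10.8, 7.20 and 7.96 CPM in line DPB2oe12.1.5, and 9.13, 8.90 and 8.13 CPM in Col-0. All 3 DPB2oe1.11.5 libraries lay above all 3 of Col-0, while abo4-1 and line DPB2oe12.1.5 spread to both sides. The log2 fold change in DPB2oe1.11.5 was 0.28 ± 0.18 with a 95% interval of -0.11 to 0.66 and did not pass (adjusted p = 0.512, edgeR). In abo4-1 it was 0.03 ± 0.18 and in line DPB2oe12.1.5 -0.02 ± 0.18.

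EMF2, the Su(z)12-type subunit that represses flowering in seedlings (chromosome 5, 20823644 to 20829644, plus strand), had 27.5, 22.7 and 23.0 CPM in abo4-1, 29.5, 27.2 and 30 CPM in line DPB2oe1.11.5, 23.0, 22.8 and 22.2 CPM in line DPB2oe12.1.5, and 30.4, 27.7 and 25.0 CPM in Col-0. DPB2oe12.1.5 was low and tight, with all 3 libraries below all 3 of Col-0, and DPB2oe1.11.5 lay within the Col-0 range. The log2 fold change in line DPB2oe12.1.5 was -0.29 ± 0.13, with a 95% interval of -0.56 to -0.02, an unadjusted p of 0.04 and an adjusted p of 0.278 in edgeR's quasi-likelihood test, so it is not a call. Under the alternatives in scaling, filter, tool and libraries it ran from -0.36 to -0.21 and its adjusted p from 0.244 to 0.493. The values in abo4-1 and DPB2oe1.11.5 were -0.18 ± 0.13 and 0.06 ± 0.13.

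VRN2, the Su(z)12-type subunit that maintains FLC silencing after cold (chromosome 4, 9476069 to 9479878, plus strand), had the widest spread of the 7. It was at 15.1, 13.2 and 10.8 CPM in abo4-1, 12, 13.0 and 17.7 CPM in line DPB2oe1.11.5, 11.1, 11.7 and 8.03 CPM in line DPB2oe12.1.5, and 10, 11.7 and 12.2 CPM in Col-0. In both abo4-1 and DPB2oe1.11.5, 2 of 3 libraries were above all of Col-0, and line DPB2oe12.1.5 replicate 3 was below all other libraries. Its log2 fold changes were 0.21 ± 0.20 in abo4-1, 0.33 ± 0.20 in DPB2oe1.11.5 (adjusted p = 0.472, edgeR) and -0.14 ± 0.20 in line DPB2oe12.1.5. Without the 4 libraries of highest LHY the value in line DPB2oe12.1.5, then resting on 1 library, was -0.49 with an adjusted p of 0.451. The ratio of VRN2 to EMF2 per kilobase of transcript was 0.780, 0.826 and 0.666 in abo4-1, 0.580, 0.679 and 0.841 in DPB2oe1.11.5, 0.686, 0.727 and 0.515 in line DPB2oe12.1.5, and 0.469, 0.603 and 0.692 in Col-0. EMF2 was thus the more abundant of the pair in every library, and each line overlapped Col-0 in this ratio.

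MSI1, a histone-binding WD40 protein that also serves chromatin assembly behind the replication fork (chromosome 5, 23556012 to 23558245, plus strand), had 35.5, 40.1 and 38.5 CPM in abo4-1, 42.5, 36.2 and 36.8 CPM in line DPB2oe1.11.5, 42.9, 41.1 and 36.3 CPM in line DPB2oe12.1.5, and 34.6, 44.1 and 31.0 CPM in Col-0. Col-0 held both its lowest and its highest library, so the lines lay within the range of wild type. The log2 fold changes were 0.06 ± 0.15, 0.08 ± 0.15 and 0.14 ± 0.15 in abo4-1, DPB2oe1.11.5 and line DPB2oe12.1.5.

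LHP1, the chromodomain protein that binds trimethylated lysine 27 of histone H3 (chromosome 5, 5827142 to 5829763, minus strand), was at 9.56, 9.55 and 10.4 CPM in abo4-1, 11.3, 10.2 and 11 CPM in line DPB2oe1.11.5, 6.51, 8.50 and 11.3 CPM in line DPB2oe12.1.5, and 8.19, 6.26 and 8.93 CPM in Col-0. All libraries of abo4-1 and of DPB2oe1.11.5 were above all of Col-0, and line DPB2oe12.1.5 spread from near the lowest value of Col-0 to the highest of all. The lowest value, Col-0 replicate 2, rests on 64 reads, for which counting error alone gives a 95% Poisson interval of 4.82 to 7.99 CPM. The log2 fold change was 0.32 ± 0.20 in abo4-1 with a 95% interval of -0.11 to 0.75 (adjusted p = 0.782, edgeR). In DPB2oe1.11.5 it was 0.46 ± 0.20 with an interval of 0.04 to 0.89, and its adjusted p was 0.289 in edgeR's quasi-likelihood test. In DPB2oe12.1.5 it was 0.16 ± 0.20. Without Col-0 replicate 2 the values were 0.20 in abo4-1 and 0.34 in DPB2oe1.11.5, and no alternative made a call of LHP1.

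**Figure D1:**
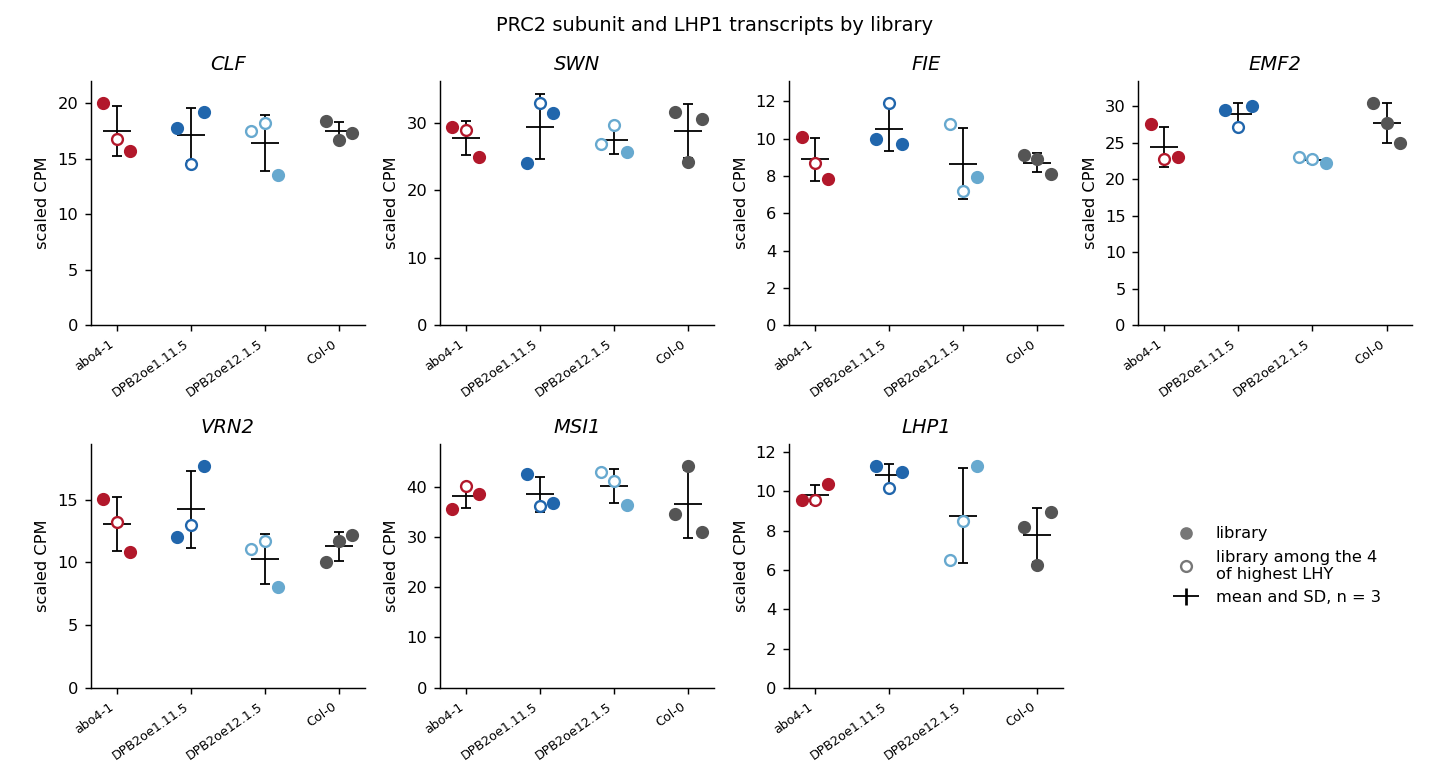
Each panel plots 1 transcript as scaled CPM on an axis from 0, with 1 point per library in replicate order, and the bar and whiskers give the mean and SD of 3 libraries; open points are the 4 libraries of highest LHY. Groups overlap in most panels, the exceptions against Col-0 being FIE in DPB2oe1.11.5, EMF2 in line DPB2oe12.1.5 and LHP1 in abo4-1 and DPB2oe1.11.5.

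In all, 1 of 7 members in abo4-1, 2 in DPB2oe1.11.5 and 1 in line DPB2oe12.1.5 had all 3 libraries on 1 side of Col-0. Among all tested loci that share was 14.5%, 23% and 22.8% in the same order, so separation of this kind was near the background. The median log2 fold change of the 7 was 0.03 in abo4-1, 0.08 in DPB2oe1.11.5 and -0.07 in line DPB2oe12.1.5, beside a median of 0 over all tested loci in each.

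**Figure D2:**
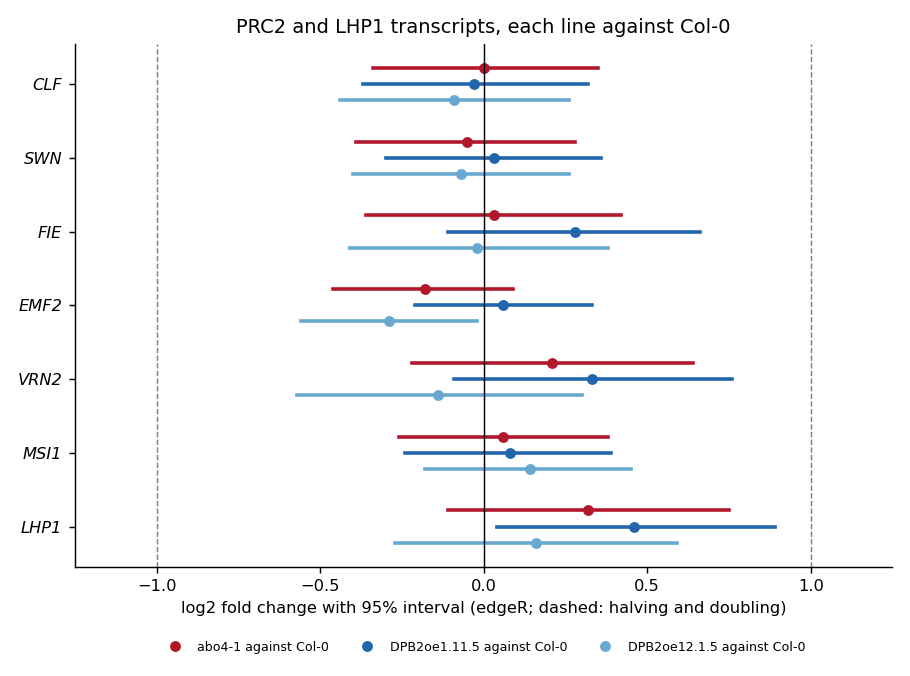
Log2 fold changes of the 7 transcripts in abo4-1, DPB2oe1.11.5 and line DPB2oe12.1.5 against Col-0 are points with 95% intervals from edgeR; dashed lines mark a halving and a doubling. All 21 intervals lie inside the dashed lines, and 2 exclude 0, LHP1 in DPB2oe1.11.5 and EMF2 in line DPB2oe12.1.5.

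Between the lines themselves, 0 of 7 members were called in DPB2oe1.11.5 against abo4-1, where 1.64% of loci were called, in line DPB2oe12.1.5 against abo4-1, with 0.713%, and in line DPB2oe12.1.5 against DPB2oe1.11.5, with 0.0301%. At an unadjusted p under 0.05 the counts were 0, 0 and 2 of 7, beside 16.4%, 14.9% and 17.9% of all tested loci, and DESeq2 called 0 in each. The 2 were the alternative Su(z)12-type subunits, both lower in line DPB2oe12.1.5 than in DPB2oe1.11.5 in all 3 libraries. EMF2 averaged 22.7 ± 0.445 CPM in line DPB2oe12.1.5 and 28.9 ± 1.51 CPM in line DPB2oe1.11.5 (SD, n = 3 each), a log2 difference of -0.35 ± 0.13 with an adjusted p of 0.185 in edgeR. VRN2 averaged 10.3 ± 1.96 CPM in line DPB2oe12.1.5 and 14.3 ± 3.06 CPM in line DPB2oe1.11.5 (SD, n = 3 each), a difference of -0.47 ± 0.20 with an adjusted p of 0.249 in edgeR. Between these 2 lines 21.2% of all tested loci separated in this way; no member did in DPB2oe1.11.5 against abo4-1, where 21.9% did, or in line DPB2oe12.1.5 against abo4-1, where 19.2% did. Without the 4 libraries of highest LHY, which leaves 1 library of DPB2oe12.1.5, the difference of VRN2 was -0.90 with an adjusted p of 0.107.

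Levels per kilobase of transcript set the members in an order that was similar but not the same in all genotypes. LHP1 (5.97) was above CLF (5.78) in DPB2oe1.11.5, and SWN (9.54) was above EMF2 (9.34) in line DPB2oe12.1.5. On this scale MSI1 was at 23.4 ± 1.45 in abo4-1, 23.7 ± 2.13 in DPB2oe1.11.5, 24.7 ± 2.11 in line DPB2oe12.1.5 and 22.5 ± 4.18 in Col-0 (SD, n = 3 each), above every other member in every library. EMF2 and SWN followed, at 11.4 ± 1.12 and 10 ± 1.40 in Col-0, and their libraries overlapped. CLF (5.88 ± 0.283) in Col-0 overlapped both VRN2 (6.63 ± 0.659) and FIE (5.58 ± 0.337). VRN2, at 5.88 or more there, lay just above FIE, at 5.84 or less. LHP1 was lowest in Col-0 at 4.29 ± 0.758, with libraries of 4.51, 3.45 and 4.91 below all of FIE, but in abo4-1 at 5.41 ± 0.256 it overlapped FIE at 5.68 ± 0.715. These are levels, not changes, and depend on the transcript length deposited with the counts. With merged exons CLF (4.97) was below FIE (5.58) in Col-0, and VRN2 (5.73) was close to FIE.

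**Figure D3:**
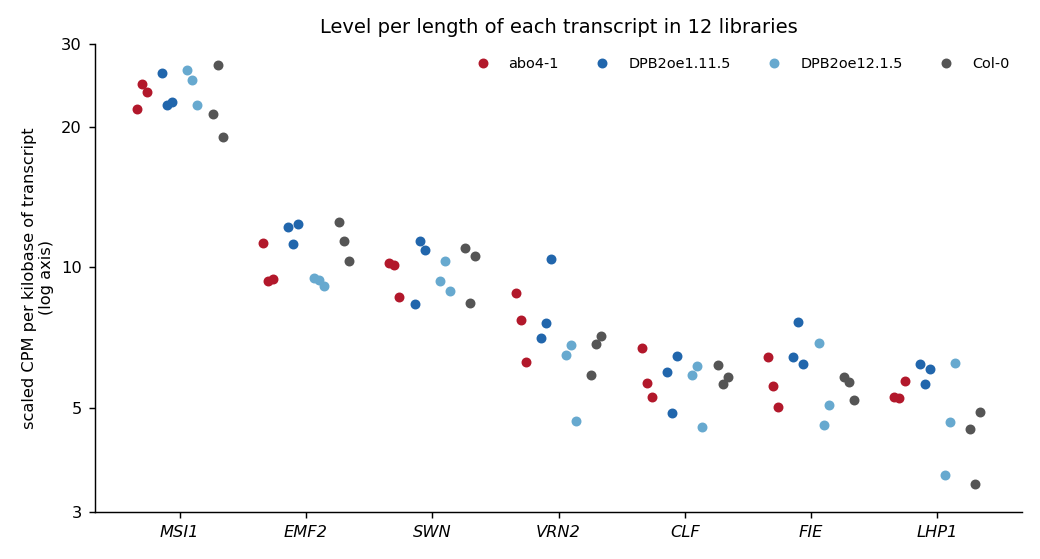
Scaled CPM per kilobase of transcript, on a log axis, is plotted for each transcript and library, with colours for the 4 genotypes. MSI1 stands above all others at 19.0 or more, and the remaining 6 lie between 3.45 and 12.5 with neighbours that overlap.

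All 7 transcripts varied less over the 12 libraries than the median tested locus. The SD of log2(CPM + 0.5) was 0.148 for MSI1, 0.158 for CLF and for SWN, 0.172 for EMF2 and 0.200 for FIE, against a median of 0.292 over tested loci. It was 0.274 for VRN2 and 0.270 for LHP1, near that median. Of all tested loci, 6.72% had a lower SD than MSI1, 8.91% a lower one than CLF, 8.86% a lower one than SWN, 12.6% a lower one than EMF2, 20.9% a lower one than FIE, 44.9% a lower one than VRN2 and 43.5% a lower one than LHP1. Since low counts add spread, these shares are not corrected for level. The highest library exceeded the lowest by 1.37 times for SWN and EMF2 and by 2.21 times for VRN2.

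**Figure D4:**
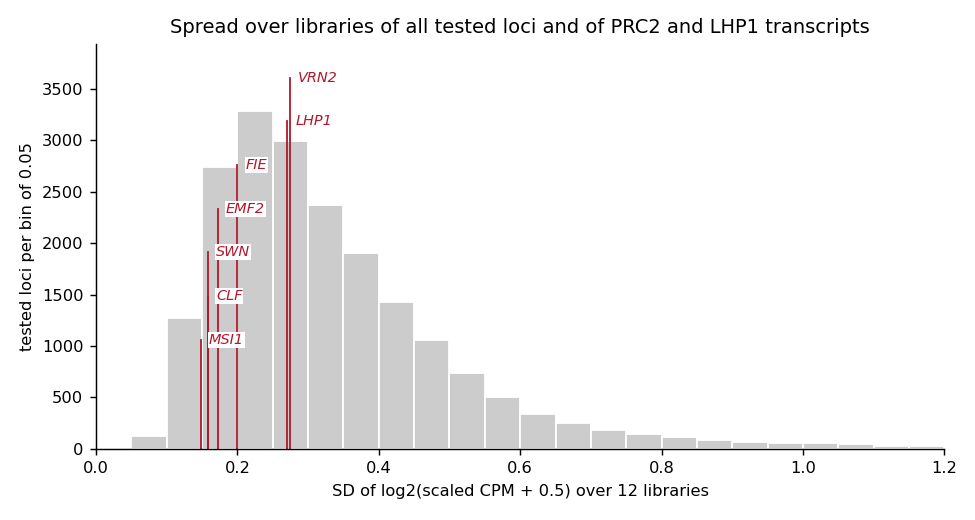
Grey bars count tested loci by the SD of log2(CPM + 0.5) over the 12 libraries, in bins of 0.05 (loci above 1.2 are outside the axis), and red lines mark the 7 transcripts. MSI1, CLF, SWN, EMF2 and FIE sit at 0.148 to 0.200, left of the median of 0.292, and LHP1 and VRN2 sit at 0.270 and 0.274.

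Similarity of profile was measured as the root mean square difference of centred log2 values over the 12 libraries, where 0 is identity. Among the members the closest pair was CLF and EMF2 at 0.162 and the most distant VRN2 and LHP1 at 0.345, while a member's median distance to all tested loci was 0.315 to 0.381. Each member had loci outside the complex that lay nearer. The closest to CLF was AT4G28370 at 0.076, and the closest to SWN were AT1G09130 at 0.069 and NAC052, a NAC-domain protein, at 0.071. EMF2 was nearest to INO80, a chromatin remodelling ATPase, and to AT5G55600, both at 0.078. FIE had AT4G39680 at 0.097, CPR1 at 0.103 and SNL3, a SIN3-like protein, at 0.117. MSI1 was nearest to GAMMA CA1, a gamma carbonic anhydrase, at 0.079, VRN2 to AT4G13495 at 0.124 and ESP4 at 0.126, and LHP1 to AT3G04760 at 0.13. With 19924 loci to choose from, such nearest neighbours are a description.

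Of 44 listed loci outside the 7, namely other PRC2 subunits with the MSI1 paralogues and the VIN3 family, PRC1 with EMF1, partners and recruiters, and antagonists, 38 were tested and 0 were called by edgeR in abo4-1, in DPB2oe1.11.5 or in line DPB2oe12.1.5 against Col-0. With 0.783%, 0.708% and 0.427% of all loci called, 0 of 38 is near the background. At an unadjusted p under 0.05 it was 4, 5 and 2 loci, beside 8.13%, 14.9% and 16.7% of all loci, and DESeq2 called 1 in abo4-1 (ICU2), 1 in DPB2oe1.11.5 (AZF1) and 0 in line DPB2oe12.1.5. Their median log2 fold changes were 0.03, 0.10 and 0.02, beside 0 over all loci. The loci not tested for low counts were MEA and FIS2, the seed forms of the catalytic and Su(z)12-type subunits, VIN3, which is induced by cold, VEL2, VEL3 and AT3G23060. MEA reached at most 10 reads, in Col-0 replicate 3.

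Among the paralogues of MSI1, MSI2 was at 26.2, 25.5 and 35 CPM in abo4-1, 23.7, 24.6 and 21.2 CPM in line DPB2oe1.11.5, 24.4, 21.5 and 26.0 CPM in line DPB2oe12.1.5, and 21.2, 17.1 and 19.1 CPM in Col-0. MSI3 was at 12.6, 12.1 and 13.1 CPM in abo4-1, 11.6, 13.2 and 13.0 CPM in line DPB2oe1.11.5, 13.3, 15.6 and 11.3 CPM in line DPB2oe12.1.5, and 9.39, 9.29 and 10.4 CPM in Col-0. All 9 libraries of the 3 lines lay above all 3 of Col-0 for MSI3, and for MSI2 too, although DPB2oe1.11.5 replicate 3 and Col-0 replicate 1 are equal there as printed, at 21.2 CPM. Separation from Col-0 in either direction was found for 14.5%, 23% and 22.8% of all tested loci in abo4-1, DPB2oe1.11.5 and line DPB2oe12.1.5. The log2 fold changes of MSI2 were 0.59 ± 0.15 (adjusted p = 0.138, edgeR), 0.27 ± 0.15 and 0.32 ± 0.15 in abo4-1, DPB2oe1.11.5 and line DPB2oe12.1.5. Those of MSI3 were 0.37 ± 0.15, 0.38 ± 0.15 and 0.47 ± 0.15, with a lowest adjusted p of 0.154 in edgeR, and neither gene passed in any line. MSI5, another member of the family (NFC5 in the annotation), had -0.38 ± 0.16 in line DPB2oe12.1.5 (adjusted p = 0.275, edgeR).

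ICU2, the catalytic subunit of DNA polymerase alpha and a known partner of LHP1, came nearest to the threshold. It was at 21.7, 22.9 and 25.3 CPM in abo4-1, 23.6, 20 and 20.8 CPM in line DPB2oe1.11.5, 19.5, 15.7 and 15.2 CPM in line DPB2oe12.1.5, and 16, 15.8 and 14.6 CPM in Col-0. The libraries of abo4-1 and DPB2oe1.11.5 were above all of Col-0, beside 14.5% and 23% of all tested loci that separated from Col-0. Line DPB2oe12.1.5 overlapped Col-0. The log2 fold change in abo4-1 was 0.59 ± 0.14 with an adjusted p of 0.0863 in edgeR and of 0.0215 in DESeq2, which calls it. In DPB2oe1.11.5 it was 0.47 ± 0.14 (adjusted p = 0.131, edgeR) and in line DPB2oe12.1.5 0.12 ± 0.14. The 8 dividing-cell markers, described with the cell types, had log2 fold changes of 0.10 to 1.16 in abo4-1, with 2 called. They had 0.19 to 0.79 in DPB2oe1.11.5 and -0.28 to 0.47 in line DPB2oe12.1.5, with 0 called in either. The part of dividing cells in the values of ICU2 was not tested.

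The region before the start of ICU2 is printed with that of MSI1, the most abundant member, because E2F factors switch on replication genes through sites of known letters. The letters searched, on both strands in the 250 bases before each annotated start, were TTTCCCGC, TTTGGCGC, TTTGCCGC and TTTCGCGC, which do not overlap one another here. They were found in 387 of 27443 promoters (1.41%) of the RefSeq annotation of TAIR10.1, in 0 of the 7 members and in ICU2 at 2 places. The last 100 bases before each start, on the plus strand, are chr5:23555912-23556011 for MSI1 and chr5:26776853-26776952 for ICU2, and capitals mark the E2F-type letters, the first of the 2 matches reading on the opposite strand.
MSI1: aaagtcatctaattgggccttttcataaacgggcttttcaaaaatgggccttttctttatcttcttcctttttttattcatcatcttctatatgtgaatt
ICU2: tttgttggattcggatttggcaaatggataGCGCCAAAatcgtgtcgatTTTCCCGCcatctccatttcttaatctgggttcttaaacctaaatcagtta
The evening element AAAATATCT, the clock-related letters searched because of the LHY spread, was in 648 of 27443 promoters (2.36%), in 0 of the 7 and in 4 of the 24 listed targets, namely FLC, MAF5, SEP3 and PHE1. The E2F-type letters were also in 2 of the 8 dividing-cell markers, MCM2 and MCM5. They were not in CDKB1;1 or CDKB2;1, the 2 of those markers called in abo4-1. A match is a description of letters, and no match says only that these letters are not in the window. A link between letters and changes was not tested.

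For the other lists the loci of lowest p were named. In PRC1 with EMF1, which binds or acts with the mark to silence genes, EMF1 had 0.21 ± 0.18, 0.15 ± 0.18 and 0.32 ± 0.18 in abo4-1, DPB2oe1.11.5 and line DPB2oe12.1.5, and VRN1, a DNA-binding protein of the FLC silencing pathway, had 0.32 ± 0.16 in DPB2oe1.11.5. Of the ubiquitin ligases, BMI1A (DRIP2 in the annotation) had 0.23 ± 0.20 in abo4-1 and 0.38 ± 0.20 in DPB2oe1.11.5, and BMI1B (DRIP1) had 0.39 ± 0.22 in line DPB2oe12.1.5. The medians of this list were 0.10, 0.26 and 0.27 over 6 tested loci, and 0 of 6 had an unadjusted p under 0.05 in any line. Among recruiters, AZF1 (ZF1 in the annotation), a zinc finger protein that binds Polycomb response elements, had 0.597, 1.63 and 0.866 CPM in line DPB2oe1.11.5, against 2.14, 2.84 and 2.87 CPM in Col-0. That was a log2 fold change of -1.32 ± 0.38 (adjusted p = 0.132, edgeR), which is not a call. All 3 libraries were below Col-0, and 23% of all tested loci separated from Col-0 in this line. DESeq2 calls AZF1 (adjusted p = 0.0451), and so does edgeR without DPB2oe1.11.5 replicate 2 (-1.83, adjusted p = 0.0449) or without the 4 libraries of highest LHY (-1.82, adjusted p = 0.0362). In abo4-1 AZF1 had -0.66 ± 0.38. BLI, which binds CLF, had -0.27 ± 0.13 in line DPB2oe12.1.5, and VAL2 (HSL1 in the annotation), a B3-domain recruiter, had -0.20 ± 0.12 there. Among antagonists, ELF6, a demethylase of the mark, had -0.20 ± 0.12 in abo4-1 and 0.26 ± 0.12 in DPB2oe1.11.5, and ATX2, a methyltransferase of lysine 4, had -0.33 ± 0.17 in line DPB2oe12.1.5. AT5G46910 had -0.37 ± 0.16 in abo4-1, ULT1, a trithorax-group factor, had 0.53 ± 0.31 in DPB2oe1.11.5, and SYD, a chromatin remodelling ATPase, had -0.20 ± 0.15 in line DPB2oe12.1.5.

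Genes that PRC2 is known to silence were read from a list of 24, which was chosen with earlier results of these data known. Of the 24, 14 were tested, and AG, AP3, SHP2, AGL19, FT, WUS, LEC1, LEC2, FUS3 and ABI3 were too low. By edgeR 3 of 14 rose in abo4-1 (0.567% of all loci were called higher there), 2 of 14 rose in DPB2oe1.11.5 (0.176%) and 2 of 14 rose in line DPB2oe12.1.5 (0.201%). None was called lower, and the medians of the 14 were 0.37, 0.58 and 0.09. At this level a locus passes the filter through the group in which it is high, so the 14 do not stand for all 24, and nothing about the list is read from these shares. Calls were also found among the cell type markers described last, such as 2 of 8 markers of dividing cells in abo4-1 and 2 of 5 seed markers in line DPB2oe12.1.5.

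The 3 that rose in abo4-1 are floral identity genes of the SEPALLATA group, of which SEP3 was measurable in Col-0 seedlings too. SEP3 was at 10, 7.04 and 10.1 CPM in abo4-1, 2.64, 2.11 and 3.65 CPM in line DPB2oe1.11.5, 2.57, 1.43 and 2.57 CPM in line DPB2oe12.1.5, and 2.43, 1.47 and 2.28 CPM in Col-0. Only the abo4-1 libraries were clear of Col-0, with a log2 fold change of 2.09 ± 0.30 (adjusted p = 0.00361, edgeR). SEP1 and SEP2 were low, at 23, 30 and 23 reads and 46, 13 and 11 reads in abo4-1 against 5, 1 and 5 reads and 4, 1 and 3 reads in Col-0. SEP1 had 3.21 ± 0.65 (adjusted p = 0.039, edgeR) and SEP2 3.39 ± 0.57 (adjusted p = 0.0128, edgeR). Genes on the opposite strand, AT5G02455 and AT5G15790, overlap SEP1 by 449 and 100 bases, so reads from those stretches may belong to either gene. The call of SEP1 is lost whichever of the 6 libraries is left out, at an adjusted p of 0.0653 to 0.172. The call of SEP2 is lost without any 1 Col-0 library or without abo4-1 replicate 1, at 0.0641 to 0.0703, while SEP3 passes in all 6. In DPB2oe1.11.5 SEP1 had 5, 26 and 6 reads and SEP2 13, 19 and 6, and in line DPB2oe12.1.5 SEP1 had 9, 4 and 10 reads and SEP2 12, 14 and 10. In scaled CPM, every library of both lines was above Col-0 for SEP2, as was every library of DPB2oe12.1.5 and 2 of 3 of DPB2oe1.11.5 for SEP1. Of all tested loci, 23% and 22.8% separated from Col-0 in DPB2oe1.11.5 and line DPB2oe12.1.5. SEP2 had 2.16 ± 0.60 in DPB2oe1.11.5 (adjusted p = 0.12, edgeR) and 2.62 ± 0.60 in line DPB2oe12.1.5 (adjusted p = 0.0765 in edgeR, and 0.0156 in DESeq2, which calls it). SEP1 had 1.68 ± 0.69 in DPB2oe1.11.5 and 1.56 ± 0.72 in line DPB2oe12.1.5 (adjusted p = 0.267 and 0.298, edgeR). AG, a gene of stamens and carpels below the filter, had 9, 8 and 17 reads in abo4-1, 9, 0 and 13 in DPB2oe1.11.5, 0, 1 and 9 in line DPB2oe12.1.5, and 1, 1 and 1 in Col-0. With no filter its log2 fold change in abo4-1 was 3.81 with an adjusted p of 0.411 in edgeR, which is not a call. STM, a meristem gene, had 4.78, 5.02 and 6.39 CPM in abo4-1 and 2.94, 2.84 and 2.87 CPM in Col-0. These groups were separate, as they were for 14.5% of all tested loci. The log2 fold change of STM was 0.90 ± 0.21 (adjusted p = 0.0828 in edgeR and 0.027 in DESeq2).

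In the DPB2 lines the targets called by edgeR were repressors of flowering. MAF5 was at 4.82, 2.2 and 5.63 CPM in line DPB2oe1.11.5, 2.33, 3.19 and 2.34 CPM in line DPB2oe12.1.5, and 0.652, 0.685 and 0.478 CPM in Col-0. MAF4 was at 4.87, 7.14 and 5.57 CPM in line DPB2oe1.11.5, 7.80, 5.78 and 5.77 CPM in line DPB2oe12.1.5, and 1.85, 1.57 and 2.39 CPM in Col-0. Both lines were above Col-0 in every library, beside 23% and 22.8% of all tested loci that separated from Col-0 in DPB2oe1.11.5 and line DPB2oe12.1.5. MAF4 rose by 1.58 ± 0.25 in DPB2oe1.11.5 and 1.71 ± 0.25 in line DPB2oe12.1.5 (adjusted p = 0.0123 and 0.0113, edgeR), and MAF5 rose by 2.79 ± 0.42 in DPB2oe1.11.5 (adjusted p = 0.00951, edgeR). In DPB2oe1.11.5 the call of MAF4 is lost without Col-0 replicate 1 or 2 or its own replicate 3 (0.0558 to 0.0633), and that of MAF5 without Col-0 replicate 3 or its own replicate 1 or 3 (0.0578 to 0.0658). In DPB2oe12.1.5 the call of MAF4 is lost without Col-0 replicate 2 (0.0538), its own replicate 1 (0.0509) or the 4 libraries of highest LHY (0.077). In DPB2oe12.1.5 MAF5 had 2.12 ± 0.43 and missed the threshold at an adjusted p of 0.0535. It is called with no filter (0.017), with the replicate block (0.0447), in the fit of 2 groups (0.0393), by DESeq2 (0.00108) and with LHY as a covariate (0.0293). FLC rose by 1.33 ± 0.26 in line DPB2oe12.1.5 at an adjusted p of 0.0495 in edgeR. The call of FLC is lost whichever of the 6 libraries is left out (0.0598 to 0.205), with the replicate block (0.0528), in the fit of 2 groups (0.0531) and with LHY as a covariate (0.0843). FLC is covered over 6067 bases by the antisense locus AT5G01675, whose reads cannot be told apart here because the strand setting of the counting is not given. In abo4-1 FLC had -1 ± 0.28 (adjusted p = 0.178, edgeR), at 3.22, 3.35 and 2.03 CPM against 7.07, 5.58 and 4.73 CPM in Col-0.

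**Figure D5:**
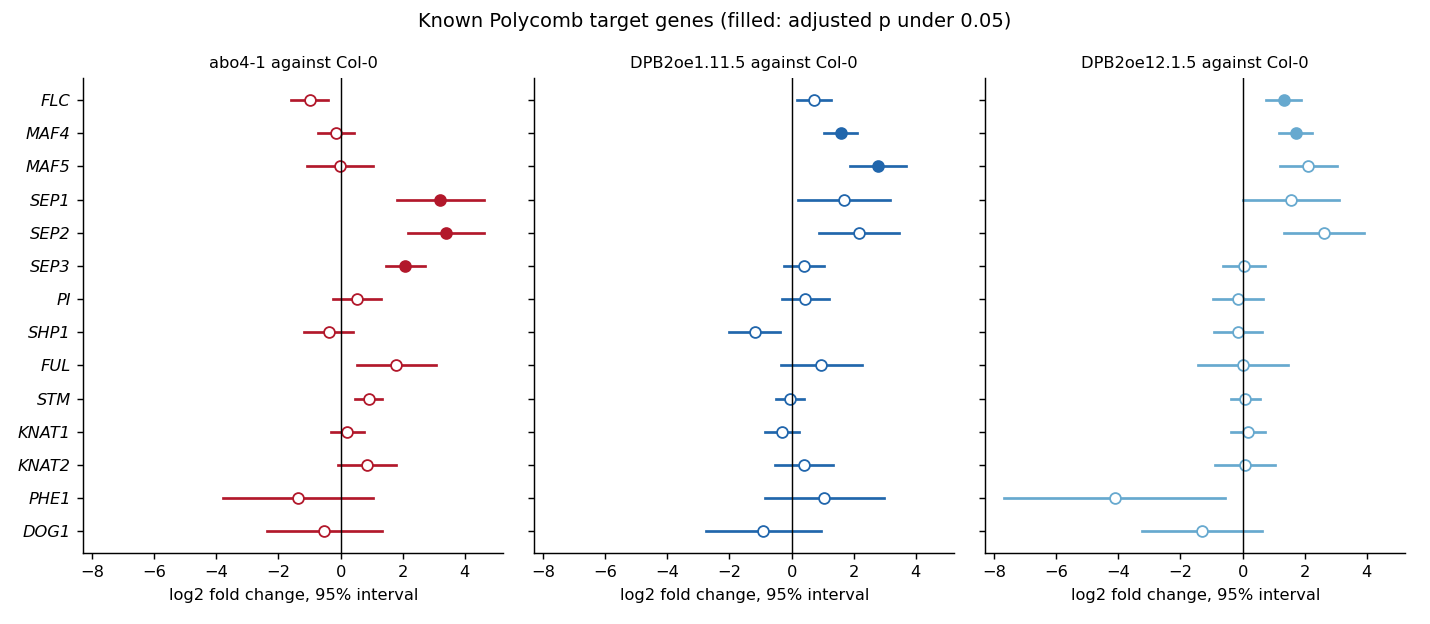
The 14 tested targets are plotted down the page as log2 fold changes with 95% intervals in abo4-1, DPB2oe1.11.5 and line DPB2oe12.1.5 against Col-0, filled where the adjusted p is under 0.05. SEP1, SEP2 and SEP3 are filled in abo4-1, MAF4 and MAF5 in DPB2oe1.11.5, and FLC and MAF4 in line DPB2oe12.1.5; PHE1 in line DPB2oe12.1.5 rests on 0, 0 and 1 reads, so that its fitted value is no measure of size.

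Markers of cell types were read beside these genes. The summed level of 8 markers of dividing cells was 222 to 229 CPM in abo4-1, 155 to 219 CPM in line DPB2oe1.11.5, 142 to 175 CPM in line DPB2oe12.1.5 and 137 to 156 CPM in Col-0. Of the 8, CDKB1;1 (1.16 ± 0.23, adjusted p = 0.0322, edgeR) and CDKB2;1 (0.90 ± 0.15, adjusted p = 0.012, edgeR) rose in abo4-1 and 0 were called in either DPB2 line. The call of CDKB1;1 is lost without any 1 library (0.0848 to 0.138), and that of CDKB2;1 without Col-0 replicate 2 or 3 or abo4-1 replicate 1 (0.0587 to 0.0791). The sum of 3 markers of green tissue was lower than Col-0 at 33600 to 37500 CPM in every library of the lines, at 28500 to 32700 CPM in abo4-1, 17500 to 27400 CPM in line DPB2oe1.11.5 and 24600 to 33100 CPM in line DPB2oe12.1.5, with 0 of 3 called. Most of that sum is RBCS1A, with 4059368 reads over the 12 libraries beside 1162871 for LHCB2.2 and 479974 for PSAD1. By gene, the log2 fold changes in abo4-1 ran from -0.31 to 0.07, with a median of -0.05 and 1 of 3 above 0. They ran from -0.76 to -0.40 in DPB2oe1.11.5 and from -0.32 to -0.17 in line DPB2oe12.1.5. Of 6 root markers, summing to 44.1 to 66.4, 34.3 to 57.9 and 67.9 to 71.5 CPM in abo4-1, DPB2oe1.11.5 and line DPB2oe12.1.5 against 44.2 to 53.1 CPM in Col-0, EXPA7 of root hairs fell in DPB2oe1.11.5 (-1.94 ± 0.39, adjusted p = 0.0409, edgeR), a call lost without any 1 library (0.0654 to 0.179). Most of the root sum is SCR (6794 reads over the 12 libraries) and CASP1 (2343). By gene, the 6 log2 fold changes in line DPB2oe12.1.5 ran from -0.09 to 0.78, with a median of 0.09. In DPB2oe1.11.5 they ran from -1.94 to 0.26, with a median of -0.53 and 1 of 6 above 0. In abo4-1 they ran from -0.32 to 0.44, with a median of -0.10. The 5 seed markers summed to 1.46 to 4.56, 0.945 to 8.15 and 4.06 to 26.8 CPM in abo4-1, DPB2oe1.11.5 and line DPB2oe12.1.5, against 0.978 to 1.59 CPM in Col-0, and PAP85 (3.41 ± 0.60) and EM6 (2.57 ± 0.38) rose in line DPB2oe12.1.5 (adjusted p = 0.0291 and 0.0128, edgeR). PAP85 is no longer called without any 1 library other than DPB2oe12.1.5 replicate 3 (0.0823 to 0.141), nor EM6 without Col-0 replicate 3 or DPB2oe12.1.5 replicate 1 or 2 (0.0522 to 0.0863). Without the 4 libraries of highest LHY they had 2.13 (adjusted p = 0.218, edgeR) and 1.89 (adjusted p = 0.158, edgeR), and with LHY as a covariate PAP85 had 2.81 (adjusted p = 0.103, edgeR). The 4 anther and pollen markers summed to at most 1.16 CPM in any library, and none had enough reads to be tested. The part of these cell types in the values of the 7 transcripts and of their targets was not tested.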

How the data were processed

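The authors deposited raw read counts per transcript model, 1 model for each locus, with the model's length, for each of 12 stranded single-end Ion Torrent Proton libraries of selected mRNA. Per the file headers, reads with equally good hits elsewhere were removed (2.09% to 3.01% of mapped reads). The genome is TAIR10, per the submitters' processing notes; the aligner is not given in the sources used here. Coordinates, names and promoters come from RefSeq's TAIR10.1, which matched 32835 loci (97.7%). The DPB2oe1.11.5 libraries carry another last digit in their titles, and the genotype label was used.

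The 7 members and all gene lists were chosen with earlier results of these data known. Named loci were the members, up to 6 called loci of each list or else those of lowest p, and the nearest profiles.

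The tests used edgeR 4.0.16 (R 4.3.3): the filterByExpr filter, TMM scaling, 1 quasi-likelihood fit with a mean per genotype over 12 libraries, and Benjamini-Hochberg adjustment over 19924 loci, called at 0.05 with no fold threshold. CPM are counts per 1e+06 TMM-scaled reads; levels per kilobase use the deposited length, where merged exons had been planned. The scripts were tested on simulated data. Replicate numbers paired DPB2oe1.11.5 with abo4-1 by the correlation of deviations from group means (0.158, 0.595 and 0.399), a hint from the data and not the design.

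Alternatives were RLE scaling, DESeq2 1.42.0, no filter, at least 1 CPM in 3 libraries, a replicate block, fits of 2 groups and leaving out each library, and, added after the data were seen, leaving out the 4 libraries of highest LHY and LHY as a covariate.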

Additional observations from a re-analysis of the deposited data

Results flagged for a closer look

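The following log2 differences between lines passed edgeR's quasi-likelihood test directly, so the effects of these lines against Col-0 differed. In DPB2oe1.11.5 against abo4-1 the repressors of flowering were higher, FLC by 1.72 ± 0.28 (adjusted p = 0.00737), MAF4 by 1.73 ± 0.25 (adjusted p = 0.00438) and MAF5 by 2.81 ± 0.43 (adjusted p = 0.00585). SEP3 (-1.70 ± 0.29, adjusted p = 0.0114), STM (-0.95 ± 0.21, adjusted p = 0.0412), the cell division marker CDKB2;1 (-0.70 ± 0.15, adjusted p = 0.0379) and the root hair marker EXPA7 (-1.77 ± 0.39, adjusted p = 0.0426) were lower there. Against Col-0 the log2 fold change of FLC was 0.72 in DPB2oe1.11.5 and -1 in abo4-1, neither called. In DPB2oe12.1.5 against abo4-1 FLC differed by 2.33 ± 0.28 (adjusted p = 0.00167), MAF4 by 1.86 ± 0.25 (adjusted p = 0.00443), MAF5 by 2.13 ± 0.44 (adjusted p = 0.0437), SEP3 by -2.05 ± 0.30 (adjusted p = 0.00733) and the seed gene PAP85 by 2.86 ± 0.59 (adjusted p = 0.0448). In DPB2oe12.1.5 against DPB2oe1.11.5 the seed gene EM6 differed by 3 ± 0.39 (adjusted p = 0.0114). With 1 library left out, the calls of STM in DPB2oe1.11.5 against abo4-1 (adjusted p 0.0545 to 0.199) and of MAF5 in DPB2oe12.1.5 against abo4-1 (0.0644 to 0.176) are lost in all 6 fits, and that of SEP3 in DPB2oe1.11.5 against abo4-1 in 3 of 6 (0.0509 to 0.0805). Likewise EXPA7 is lost in all 6 (0.0569 to 0.162), CDKB2;1 in 5 of 6 (0.054 to 0.128), PAP85 in 5 of 6 (0.0772 to 0.18) and EM6 in 3 of 6 (0.052 to 0.118). Without the 4 libraries of highest LHY, edgeR's adjusted p in DPB2oe12.1.5 against abo4-1 was 0.0647 for SEP3, 0.0653 for MAF4, 0.154 for MAF5 and 0.443 for PAP85 (1.37), so that FLC alone of these 5 is still called. Under that setting it was 0.0652 for STM in DPB2oe1.11.5 against abo4-1 and 0.0604 for EM6 (2.24) between the DPB2 lines. With LHY as a covariate PAP85 against abo4-1 is lost (0.071), and with no filter STM (0.0802). No PRC2 member and not LHP1 differed between lines by this test.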

How the results depend on the processing

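No alternative called any of the 7 members in any of the 6 comparisons. RLE scaling and the filter of at least 1 CPM changed no call and no direction among the results reported; SEP2 had no value under that filter.

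Counts over all loci were unstable. With no filter they were 215 in DPB2oe1.11.5 against Col-0, 180 in DPB2oe12.1.5 against Col-0, 222 in DPB2oe12.1.5 against abo4-1 and 115 between the DPB2 lines. Fits of 2 groups alone gave 99, 220, 101 (DPB2oe1.11.5 against abo4-1), 44 (DPB2oe12.1.5 against abo4-1) and 1 (between the DPB2 lines), the first 2 being abo4-1 and DPB2oe1.11.5 against Col-0. They ended the calls of SEP2 in abo4-1 (adjusted p 0.0548) and FLC in DPB2oe12.1.5 (0.0531), those of MAF5 (0.0614), STM (0.124), CDKB2;1 (0.134) and EXPA7 (0.0645) in DPB2oe1.11.5 against abo4-1, those of MAF5 (0.11) and PAP85 (0.113) in DPB2oe12.1.5 against abo4-1, and that of EM6 (0.125) between the DPB2 lines. DESeq2 gave 308, 645 and 708 against Col-0 for abo4-1, DPB2oe1.11.5 and line DPB2oe12.1.5, 923 and 646 for the DPB2 lines against abo4-1 and 670 between them, with 1 related locus in each of abo4-1 and DPB2oe1.11.5 and 4 targets in DPB2oe12.1.5. Without the 4 libraries of highest LHY the counts were 936 and 31 for DPB2oe1.11.5 and line DPB2oe12.1.5 against Col-0, 1054 and 69 against abo4-1 and 1046 between them, with 1 related locus in DPB2oe1.11.5 and 1 target in DPB2oe12.1.5. With LHY as a covariate they were 560 (DPB2oe1.11.5 against Col-0), 967 (against abo4-1) and 150 (between the DPB2 lines). The cause was not tested.

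The replicate block moved the count in DPB2oe12.1.5 against Col-0 to 152 and between the DPB2 lines to 17. It moved SEP1 in abo4-1 to an adjusted p of 0.0556 and, in DPB2oe12.1.5, FLC to 0.0528 and MAF5 to 0.0447. In DPB2oe1.11.5 against abo4-1, where numbers met the rule for pairing, 2 of 3 libraries correlated best with their own number and it changed no reported call.

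Leaving out 1 library gave 67 to 97 loci in abo4-1 against Col-0, 21 to 286 in DPB2oe1.11.5, 15 to 81 in DPB2oe12.1.5, 79 to 646 and 49 to 205 for these lines against abo4-1, and 3 to 1141 between them, the highest without DPB2oe1.11.5 replicate 2. Targets called ran from 1 to 2 in abo4-1, 0 to 2 in DPB2oe1.11.5 and 0 to 1 in DPB2oe12.1.5, and related loci from 0 to 1 in DPB2oe1.11.5.

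Signs turned in uncalled values near 0. With 1 library left out, log2 fold changes against Col-0 ran in abo4-1 from -0.16 to 0.02 for SWN, -0.07 to 0.11 for FIE, -0.05 to 0.21 for MSI1, -0.30 to 0.03 for MAF4 and -0.55 to 0.24 for MAF5. In DPB2oe1.11.5 they ran from -0.12 to 0.08 for CLF, -0.08 to 0.18 for SWN, -0.01 to 0.13 for EMF2, -0.03 to 0.23 for MSI1 and -0.13 to 0.05 for STM. In DPB2oe12.1.5 they ran from -0.17 to 0.03 for CLF, -0.20 to 0.10 for FIE, -0.24 to 0.01 for VRN2, -0.06 to 0.33 for LHP1, -0.12 to 0.28 for SEP3 and -0.02 to 0.17 for STM. Between lines, DPB2oe1.11.5 against abo4-1 gave -0.12 to 0.08 for CLF, -0.06 to 0.26 for VRN2 and -0.04 to 0.08 for MSI1, DPB2oe12.1.5 against abo4-1 gave -0.18 to 0.03 for CLF, -0.09 to 0.03 for SWN, -0.23 to 0.07 for FIE and -0.38 to 0.01 for LHP1, and CLF between the DPB2 lines -0.17 to 0.06. With no filter CLF was 0.02 in DPB2oe1.11.5 against Col-0 and 0.01 against abo4-1. With LHY as a covariate FIE was -0.01 and MAF5 0.09 in abo4-1 and SWN -0.02 in DPB2oe1.11.5. Without the 4 libraries of highest LHY, MAF5 was 0.26 in abo4-1, CLF 0.09 and SWN -0.05 in DPB2oe1.11.5, MSI1 -0.01 and ICU2 -0.03 in DPB2oe12.1.5, CLF 0.06 in DPB2oe1.11.5 against abo4-1, MSI1 -0.03 and LHP1 0.19 in DPB2oe12.1.5 against abo4-1, and MSI1 -0.14 and LHP1 0.01 between the DPB2 lines. Depth limits LHP1 and FIE most, at 64 and 81 reads in their lowest libraries.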
